A study of Rattus norvegicus with 8 samples.

Results

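Splicing factor and ribonucleoprotein (RNP) genes were followed in rat brain 2 h after a transient stroke, with and without pretreatment with candesartan. The genes were chosen by name. A probe set was taken where the array's annotation gave it 1 symbol beginning with Srsf, Hnrnp, Snrp, Sf3a, Sf3b or Prpf, or equal to Puf60, Tra2a, Tra2b, U2af1 or U2af2. This found 74 probe sets for 53 genes, of 15866 probe sets and 10411 singly named genes on the array. Each gene was represented by its probe set of highest mean signal. U2af1 had 0 probe sets under a single symbol. A further 8 probe sets, which named Hnrnpk, Snrpc, Snrpg, Srsf3 or Snrpn together with a pseudogene, paralogue or overlapping gene, were left out, so Hnrnpk has no value here.

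All animals were male Wistar rats of 7 weeks weighing 160 to 200 g. They received saline (vehicle) or candesartan, which blocks the angiotensin AT1 receptor, at 0.1 mg/kg in 2 doses a day over 5 days. Rats of both pretreatments then underwent either occlusion of the right middle cerebral artery for 90 min followed by reperfusion (MCAO), or a sham operation. RNA came from a segment of the right hemisphere. Every array held 1 pool of 2 rats, and the 4 groups (vehicle sham, vehicle MCAO, candesartan sham, candesartan MCAO) had 2 separate pools each, 8 arrays in all. The label of the second candesartan MCAO pool describes its group, but its treatment text names no pretreatment.

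The arrays had been scaled alike by the submitters, with median signals of 1258.7 to 1381.45 in arbitrary linear units. The second candesartan MCAO pool stood apart, correlating with the remaining arrays at 0.960 on average, where each of those reached at least 0.976. It had the lowest of the 8 signals for 23 of 51 tested members (45.1%) and for 27.6% of all tested probe sets. Counts of called members and some of the results that turn on this group are therefore also given without it. The remaining values for candesartan MCAO include this pool. The stroke marker Hspa1a, an inducible heat shock gene used here to check the operation, read 1146.8 to 1342.7 in the 4 sham pools. Its signals were 27296.1 and 29810.3 in vehicle MCAO, and 5793.8 and 14082.2 in candesartan MCAO. Both candesartan MCAO pools thus read below both vehicle MCAO pools. The part of this in the comparisons of pretreatments was not tested. Defining markers of neurons (Snap25, at least 55509.4), astrocytes (Gfap, at least 14149.1) and oligodendrocytes (Mbp, at least 100814) were well measured. In such mixed tissue, fewer cells of a type and less RNA per cell cannot be told apart.

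Pre-mRNA splicing is carried out by the spliceosome, built from small nuclear RNPs whose RNAs are wrapped in Sm proteins. The U2 particle, with its SF3a and SF3b subcomplexes, binds the branch point beside U2AF. Many PRPF proteins serve the U4/U6.U5 tri-snRNP and later rearrangements of the machine, and some are linked to the U1 particle. SR proteins and the related Tra2 proteins mostly favour the exons they bind, whereas hnRNP proteins coat the transcript and often oppose inclusion. In the brain these regulators shape the exons that distinguish neurons from other cells, and heat and other stresses are known to alter SR protein activity through phosphorylation by CLK kinases.

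The regions just upstream of the 3 genes whose probe sets had the largest differences after MCAO with vehicle are shown first. Hnrnpa2b1 is among them through its second probe set only. Whether these regions have a part in the differences was not tested. Each is 150 bases ending at the base before the start site, 5′ to 3′, from RefSeq, with capitals where a script found a CCAAT box, a GC box (GGGCGG) or an NRF1 site on either strand.
Prpf39, GRCr8 chr6:88825090-88825239, plus strand: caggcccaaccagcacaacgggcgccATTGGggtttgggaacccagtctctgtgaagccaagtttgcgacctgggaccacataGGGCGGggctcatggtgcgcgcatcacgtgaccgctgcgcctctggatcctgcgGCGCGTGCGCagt
Prpf38b, GRCr8 chr2:199250339-199250488, minus strand: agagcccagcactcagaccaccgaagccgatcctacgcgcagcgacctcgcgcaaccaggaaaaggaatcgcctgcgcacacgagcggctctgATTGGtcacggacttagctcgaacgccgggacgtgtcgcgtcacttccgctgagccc
Hnrnpa2b1, GRCr8 chr4:81875887-81876036, minus strand: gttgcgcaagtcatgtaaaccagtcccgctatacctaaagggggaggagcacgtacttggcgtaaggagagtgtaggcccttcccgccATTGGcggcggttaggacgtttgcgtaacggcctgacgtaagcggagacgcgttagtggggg
All 3 hold a CCAAT box, and only Prpf39 among them also holds the GC box and the NRF1 site. Start regions of 300 bases (250 before and 50 after the start) were matched for 49 of the 53 genes. The CCAAT box was present in 28 of 49 (57.1%) and in 37.7% of all 27457 start regions in the RefSeq table. GC boxes were found in 29 (59.2%, against 34.9%), the ETS core CCGGAAG in 13 (26.5%, against 9.22%) and NRF1 sites in 11 (22.4%, against 4.71%). Motifs known from inducible genes were found at or below the share in all regions. The cAMP response element TGACGTCA was in 0 of 49 (1.91% of all), the AP-1 site TGANTCA in 2 (4.08%, against 7.33%), GAANNTTC of the heat shock element in 4 (8.16%, against 8.34%) and TATAAA in 4 (8.16%, against 14.3%). Windows of these genes had a median GC content of 59.7%, against 52.3% for all windows, and the motifs rich in G and C overlap in part. These matches describe letters only.

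Of the 53 genes, 51 had a representative probe set above the filter on low signal, more than 918.8 on at least 2 arrays, and Prpf38a and Srsf10 did not. No representative probe set changed in any of 6 comparisons by limma at an adjusted p under 0.05, the threshold for a call. In vehicle rats, MCAO against sham gave 0 of 51, where 27 of all 10293 tested probe sets were called (0.262%). In candesartan rats it gave 0 of 51 (all tested: 25, 0.243%), and for both pretreatments together 0 of 51 (43, 0.418%). Candesartan against vehicle gave 0 of 51 after MCAO (7, 0.068%) and 0 of 51 after sham (0, or 0%), and the difference between the 2 MCAO effects gave 0 of 51 (2, 0.0194%). One probe set outside these representatives was called, the second probe set of Hnrnpa2b1 in vehicle rats, described with its gene.

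**Figure D1:**
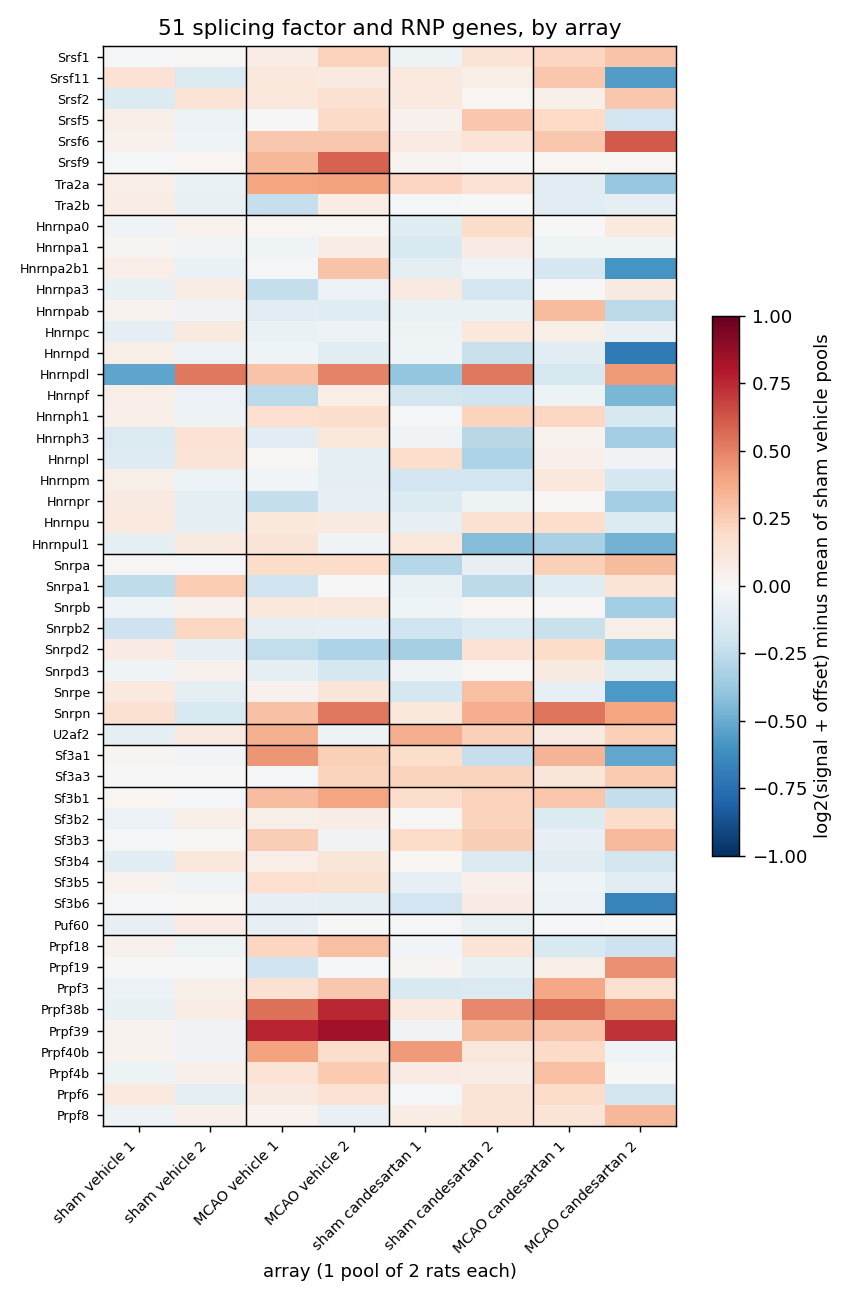
Log2(signal + 372.4) of each of the 51 tested genes on each of the 8 arrays, shown as the difference from the gene's mean in the 2 vehicle sham pools, with genes in rows by family and arrays in columns by group. The 2 vehicle MCAO columns have medians of 0.07 and 0.11, and the second candesartan MCAO column has a median of -0.08.

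The differences after MCAO in vehicle rats lay mostly above 0 without being called. Of the 51 genes, 34 (66.7%) were above 0, against 52.5% of all tested, and the median difference was 0.10 against 0.01 on the log2(signal + 372.4) scale used throughout. Without the first vehicle sham pool 28 were above 0 with a median of 0.06, and leaving out any 1 array gave medians of 0.06 to 0.12. Both MCAO pools were above both sham pools for 18 genes (35.3%, against 24.6% of all tested), and both were below for 5 (9.80%, against 20.6%). An unadjusted p under 0.05 was found for 5 genes, all higher after MCAO (9.80%, against 7.06% in either direction). After centring each array on its median, the members' median was 0.03 and that of all tested -0.06. For 48 of the 51 genes the 95% interval lay inside a 2-fold change of signal + 372.4 in either direction (94.1%, against 96.8% of all tested). For dim genes the offset makes this a wider limit in signal itself.

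In candesartan rats the position of the members turned on 1 pool. Of the 51 genes, 21 (41.2%) were above 0, against 44.7% of all tested, with medians of -0.02 and -0.03. Without the second candesartan MCAO pool 32 (62.7%) were above 0, against 47.1%, with medians of 0.04 and -0.02. The pools did not overlap for 8 genes that were higher (15.7%, against 16.9%) and 4 that were lower (7.84%, against 21.4%). At an unadjusted p under 0.05 there were 4 genes, 3 higher and 1 lower (7.84%, against 12.4% in either direction). The 3 higher genes include Snrpa, which passed the filter only through its 4 MCAO pools, so its direction was fixed by the filter. All 51 intervals lay within a 2-fold change. After MCAO, 12 of the 51 genes were above 0 in both pretreatments (23.5%, against 23.6% of all tested), 8 were below in both (15.7%, against 26.4%), 22 were above only with vehicle (43.1%, against 28.9%) and 9 only with candesartan (17.6%, against 21.1%). Without the second candesartan MCAO pool these counts were 18, 3, 16 and 14, and none of the directions was called.

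**Figure D2:**
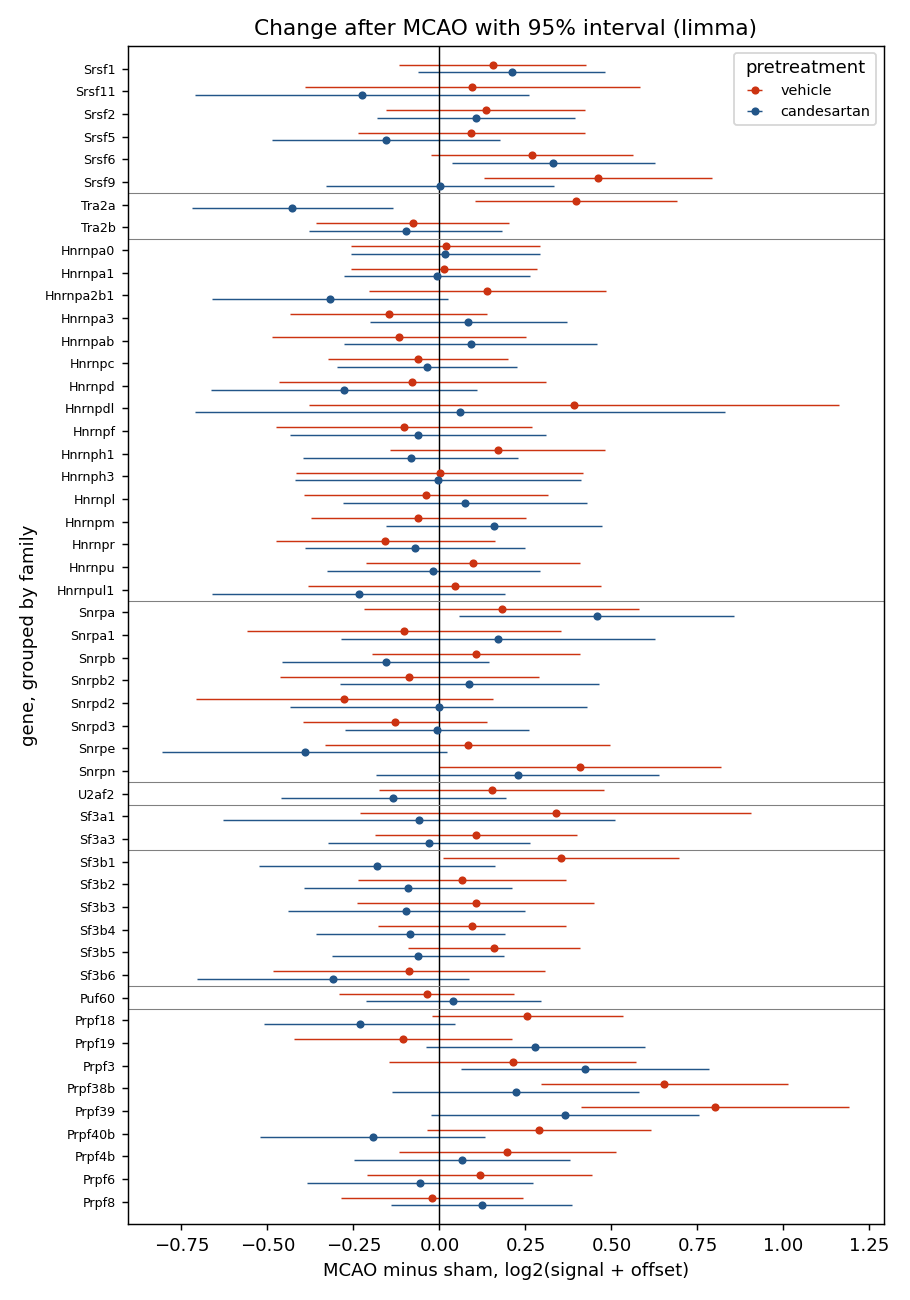
Difference after MCAO for each of the 51 genes, grouped by family, with vehicle in red and candesartan in blue; points are limma estimates on the log2(signal + 372.4) scale and lines are 95% intervals. Prpf39 (0.80) and Prpf38b (0.65) lie farthest right with vehicle, and Tra2a lies at 0.40 with vehicle and -0.43 with candesartan.

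Among the SR proteins, all 6 tested Srsf genes had a difference above 0 after MCAO with vehicle (median 0.14) and 4 of 6 with candesartan (median 0.05). Without the second candesartan MCAO pool 5 of 6 were above 0 with candesartan (median 0.10). None passed the test. Srsf9, an SR protein with a short arginine-serine tail, read 1245.7 and 1296.2 in the vehicle sham pools, 1699.2 and 2099.1 in the vehicle MCAO pools, 1302.7 and 1274.7 in the candesartan sham pools, and 1296.7 and 1283.2 in the candesartan MCAO pools. Only the vehicle MCAO pools stood above the other 6. The difference was 0.46 ± 0.15 (SE; limma adjusted p = 0.48) with vehicle and 0.00 ± 0.15 (adjusted p = 0.999) with candesartan, and candesartan against vehicle after MCAO gave -0.44 ± 0.15 (adjusted p = 0.275). The difference between the MCAO effects was -0.46 (adjusted p = 0.563).

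Srsf6, an SR protein known among others for exon choice in the tau transcript, had signals of 4523.6 and 4246.6 in vehicle sham, 5347.9 and 5366.5 in vehicle MCAO, 4668.1 and 4853.5 in candesartan sham, and 5357.4 and 6908.4 in candesartan MCAO. All 4 MCAO pools exceeded all 4 sham pools. Over both pretreatments its difference was 0.30 ± 0.09 (limma adjusted p = 0.295). It was 0.21 without the second candesartan MCAO pool and 0.39 without the first. The latter fit leaves the pool that stood apart, with the highest signal of 6908.4, alone in its group. A second Srsf6 probe set gave 0.15 with vehicle and -0.08 with candesartan, against 0.27 and 0.33 for the first.

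Srsf1, the founding SR protein, gave 0.15 after MCAO with vehicle and 0.21 with candesartan on signals of 3949.2 to 5097.3. Its second probe set gave 0.17 and -0.29. Srsf2, which also acts in transcription elongation, gave 0.13 and 0.11, and its second probe set 0.33 and -0.11. Srsf5, the Srsf probe set of highest mean signal (11166.9 to 15521.3), gave 0.09 and -0.15. Srsf11 gave 0.10 and -0.23, with its lowest signal, 3144.3, in the second candesartan MCAO pool. Srsf10, a splicing repressor when dephosphorylated, stayed between 383.9 and 674.9 and was not tested.

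Tra2a had the largest difference between the MCAO effects of the pretreatments among the 51 representative probe sets. This SR-like activator binds GAA-rich exonic enhancers. Its signals were 2945.9 and 2638 in vehicle sham, 3784.7 and 3800.8 in vehicle MCAO, 3299.3 and 3121.4 in candesartan sham, and 2544.5 and 2060 in candesartan MCAO. The vehicle MCAO pools were the highest of the 8 and the candesartan MCAO pools the lowest, with no overlap with any other group. MCAO against sham gave 0.40 ± 0.13 (limma adjusted p = 0.49) with vehicle and -0.43 ± 0.13 (adjusted p = 0.277) with candesartan. Their difference was -0.83 ± 0.19 (adjusted p = 0.421), and candesartan against vehicle after MCAO gave -0.64 ± 0.13 (adjusted p = 0.173).

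The Tra2a result depended on the candesartan MCAO pools. Without the second, which stood apart, the difference between the MCAO effects was -0.69 (limma adjusted p = 0.312). Without the first it was -0.96 (adjusted p = 0.0269), and candesartan against vehicle after MCAO was -0.78 (adjusted p = 0.0101); that fit rests on the pool that stood apart alone. Tra2b, the close paralogue of Tra2a, read 7949.8 and 7172.6 in vehicle sham, 6398.2 and 7955 in vehicle MCAO, 7456 and 7553.9 in candesartan sham, and 6938.1 and 7038.3 in candesartan MCAO. Its vehicle groups overlapped, the candesartan MCAO pools were below the candesartan sham pools, and its differences were -0.08 and -0.10.

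**Figure D3:**
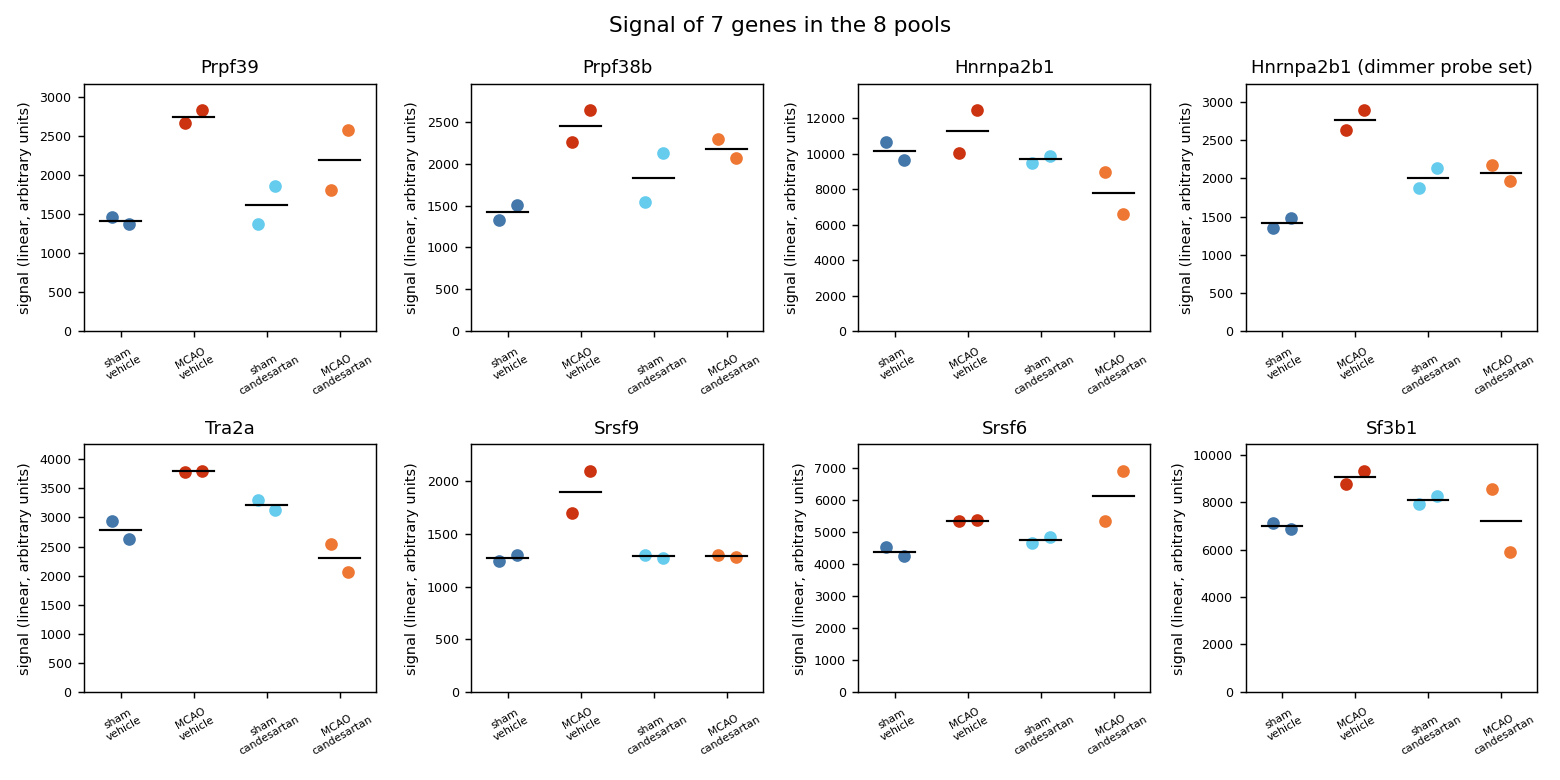
Signal in arbitrary linear units, from 0, of 7 genes in each pool, with Hnrnpa2b1 shown by both of its probe sets; points are single pools and the bar is the group mean. In the Tra2a panel the candesartan MCAO pools (2544.5 and 2060) lie below all others, and in the Srsf9 panel only the vehicle MCAO pools (1699.2 and 2099.1) stand above the rest.

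The hnRNP genes as a family lay around 0 after MCAO. Of 16 tested, 8 were above 0 with vehicle (median -0.02) and 6 with candesartan (median -0.01), or 11 without the second candesartan MCAO pool (median 0.07). Hnrnpa1, a repressor of exon inclusion that also binds telomeric repeats, read 5149 to 6143.2 over the 8 pools, with differences of 0.01 and -0.01. Hnrnpa0, the hnRNP probe set of highest mean signal, read 18918.2 to 23464.7 and gave 0.02 in both pretreatments.

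Hnrnpa2b1, an hnRNP that also carries mRNA into neuronal processes, gave different readings on its 2 probe sets. The representative read 10638.8 and 9636.6 in vehicle sham, 10050 and 12453.1 in vehicle MCAO, 9497.1 and 9872.5 in candesartan sham, and 8947.1 and 6602.9 in candesartan MCAO. Vehicle sham and vehicle MCAO overlapped, and the candesartan MCAO pools were the lowest of all. The differences were 0.14 (limma adjusted p = 0.93) with vehicle, -0.32 (adjusted p = 0.435) with candesartan, and -0.52 ± 0.16 (adjusted p = 0.254) for candesartan against vehicle after MCAO.

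The second Hnrnpa2b1 probe set was the only one of the 67 tested member probe sets that was called. Its signals were 1350.7 and 1480.2 in vehicle sham, 2635.5 and 2892.9 in vehicle MCAO, 1870.6 and 2142.1 in candesartan sham, and 2173.5 and 1972 in candesartan MCAO. Vehicle MCAO was the highest group and vehicle sham the lowest, while the candesartan groups overlapped between them. It rose by 0.81 ± 0.14 (limma adjusted p = 0.0433; 95% interval 0.51 to 1.11) after MCAO with vehicle and had a difference of 0.04 (adjusted p = 0.929) with candesartan. The difference between the MCAO effects, -0.77 ± 0.19, did not pass the test (adjusted p = 0.445). Without any 1 of the 4 vehicle arrays the vehicle value was 0.75 to 0.87 with adjusted p of 0.28 to 0.479, and the adjusted p was 0.0697 and 0.0748 without the first or the second candesartan sham array. Other scalings, with values of 0.74 to 0.77, gave adjusted p of 0.0528 to 0.0681, and no filter gave 0.13.

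With vehicle, MCAO pools lay wholly above sham for 1 of 16 hnRNP genes, Hnrnph1 (difference 0.17), and wholly below for 1, Hnrnpab (6.25% each, against 24.6% and 20.6% of all tested). Hnrnpul1, an hnRNP with a part in DNA repair, gave -0.44 for candesartan against vehicle after MCAO (limma adjusted p = 0.37), and Hnrnpa3 gave 0.19 (adjusted p = 0.561). Hnrnpab, a relative of Hnrnpd, was lower in both vehicle MCAO pools than in both sham pools, by a difference of -0.12 (adjusted p = 0.949). Hnrnpf and Hnrnpm, which bind G-rich and GU-rich RNA, each gave -0.19 for candesartan against vehicle after sham (adjusted p above 0.99 for both). The remaining hnRNP genes, Hnrnpc, Hnrnpd, Hnrnpdl, Hnrnph3, Hnrnpl, Hnrnpr and Hnrnpu, had MCAO differences of -0.28 to 0.39. Hnrnpdl gave 0.39 with vehicle on its representative and -0.11 on its second probe set, and the 4 probe sets of Hnrnpa3 ranged from -0.17 to 0.42 for the difference between the MCAO effects.

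The Sm and other snRNP protein genes were split. With vehicle, 4 of 8 were above 0 after MCAO (median -0.00), and with candesartan also 4 of 8 (median 0.04). Without the second candesartan MCAO pool 6 of 8 were above 0 with candesartan (median 0.07). Snrpa, the U1 protein that binds a stem-loop of U1 RNA, read 808 and 785.3 in vehicle sham, 952.8 and 952.3 in vehicle MCAO, 589.4 and 733.8 in candesartan sham, and 1007.3 and 1081.2 in candesartan MCAO. All 4 MCAO pools exceeded all 4 sham pools. It passed the filter on low signal only through those 4 MCAO pools, so its direction is a description, and it is among the members counted above as higher without overlap in each pretreatment. Its differences were 0.18 with vehicle, 0.46 with candesartan (limma adjusted p = 0.356) and 0.32 ± 0.13 over both (adjusted p = 0.457).

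Snrpn, an Sm protein made mainly in neurons from an imprinted locus, read 1013 and 745.4 in vehicle sham, 1151.8 and 1417.2 in vehicle MCAO, 965.8 and 1228.7 in candesartan sham, and 1426.7 and 1259.2 in candesartan MCAO. The groups did not overlap within either pretreatment, and the differences were 0.41 (limma adjusted p = 0.705) and 0.23 (adjusted p = 0.64). Of 2 brighter probe sets shared with Snurf, outside the gene rule, 1 read 32985.6 and 32183.5 in vehicle sham and 28998.2 and 32337.3 in vehicle MCAO. The other read 27980.7 and 27182 in vehicle sham and 30325 and 27512.3 in vehicle MCAO. On both, sham and MCAO overlapped in each pretreatment. As neurons are the main source of Snrpn, their markers are given beside it. The summed signal of 13 neuronal markers was 237665 and 261231 in vehicle sham and 235647 and 246183 in vehicle MCAO. It was 239402 and 240542 in candesartan sham, and 269431 and 304739 in candesartan MCAO. Snap25 alone read 62558 and 66724.8 in candesartan sham and 86193.7 and 113989 in candesartan MCAO. Eno2, Map2, Tubb3 and Gad1 had their lowest signal of all arrays in the second candesartan MCAO pool. After MCAO with candesartan, 9 of the 13 markers were above 0. The part of these markers in the result was not tested.

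The core Sm genes Snrpd2 and Snrpd3 were lower in both vehicle MCAO pools than in both sham pools, with differences of -0.28 (limma adjusted p = 0.855) and -0.13 (adjusted p = 0.897). Snrpd2 gave -0.00 with candesartan and Snrpd3 gave -0.01. Snrpe, another Sm ring protein and the Snrp probe set of highest mean signal, gave 0.08 and -0.39 on signals of 5475.7 to 10362.9. Snrpa1 and Snrpb2 of the U2 particle and Snrpb of the Sm ring gave between -0.16 and 0.17 in both comparisons.

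U2AF and the U2 particle's subcomplexes came next in the splicing cycle. U2af2, the large U2AF subunit that reads the polypyrimidine tract, read 7517.9 and 8549.8 in vehicle sham, 10374.9 and 7716 in vehicle MCAO, 10410.9 and 9509.5 in candesartan sham, and 8568.7 and 9531.8 in candesartan MCAO. The candesartan sham pools were above the vehicle sham pools, by 0.30 ± 0.15 (limma adjusted p above 0.99), and the MCAO groups overlapped their shams. Puf60, which works beside U2AF at weak sites, read 5505.9 to 6246.2 over all pools with differences of -0.04 and 0.04.

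All 6 Sf3b genes had a difference below 0 after MCAO with candesartan (median -0.09), and 5 of 6 were above 0 with vehicle (median 0.10); none was called. Without the second candesartan MCAO pool 5 of 6 were below 0 (median -0.04): Sf3b1 was at 0.08, Sf3b6 at -0.0054 and Sf3b3 lowest at -0.30. Without the first candesartan MCAO pool 2 of 6 were above 0 (median -0.11). Of all tested probe sets, 44.7% were above 0 with candesartan and 52.5% with vehicle. Sf3b1, the subunit that clamps the branch site, read 7108.5 and 6884.1 in vehicle sham, 8773.8 and 9325.2 in vehicle MCAO, 7948.9 and 8285.8 in candesartan sham, and 8580.7 and 5882.6 in candesartan MCAO. Vehicle MCAO was the highest group, and the 2 candesartan MCAO pools lay on opposite sides of their shams. The differences were 0.35 ± 0.16 (limma adjusted p = 0.683) and -0.18, while a second Sf3b1 probe set gave 0.16 and 0.23. Sf3b6, which contacts the branch point, gave -0.09 and -0.31, and its lowest signal, 5329.2, was again in the second candesartan MCAO pool.

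The 2 Sf3a genes differed in precision. Sf3a1 gave 0.34 ± 0.26 with vehicle and -0.06 with candesartan on 1 probe set, and 0.38 and -0.57 on the other. Their differences between the MCAO effects were -0.40 and -0.95 (limma adjusted p = 0.752 and 0.465). Sf3a3, a zinc-finger subunit of SF3a, gave 0.11 ± 0.13 and -0.03 after MCAO, and 0.22 for candesartan against vehicle after sham, where its pools did not overlap.

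The Prpf genes held the 2 largest differences with vehicle among representative probe sets. Of 9 tested, 7 were above 0 (median 0.21) and 6 had MCAO pools wholly above sham (66.7%, against 24.6% of all tested). With candesartan 6 were above 0 (median 0.12), or 7 without the second candesartan MCAO pool (median 0.13). Over both pretreatments 9 of 9 were above 0, with a median of 0.09 and none called, but 7 of 9 without the second candesartan MCAO pool and 6 of 9 without the first. Prpf39, a U1-associated protein that helps the U1 particle find introns, read 1459.7 and 1375.7 in vehicle sham, 2663 and 2833 in vehicle MCAO, 1372.7 and 1858.1 in candesartan sham, and 1812.1 and 2580.4 in candesartan MCAO. The vehicle groups were far apart, and the candesartan groups overlapped.

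Prpf39 differed by 0.80 ± 0.18 after MCAO with vehicle (limma adjusted p = 0.159; 95% interval 0.41 to 1.19) and by 0.36 with candesartan (adjusted p = 0.43). Over both pretreatments its difference was 0.58 ± 0.12 (adjusted p = 0.0944), the smallest adjusted p of any member in that comparison. It was called with vehicle when only the 2 vehicle groups were fitted (adjusted p = 0.0148) and when arrays were weighted (adjusted p = 0.0139). Both of those settings also called more of all tested probe sets than the main fit. With no filter its adjusted p with vehicle was 0.371. It was not called under the other scalings, offsets and variance models, the stricter filter or the replicate block. The difference between its MCAO effects was -0.44 (adjusted p = 0.61).

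Prpf38b, a relative of the tri-snRNP protein PRPF38A, read 1329.2 and 1509.7 in vehicle sham, 2256.1 and 2642 in vehicle MCAO, 1541.7 and 2128.1 in candesartan sham, and 2296.5 and 2068 in candesartan MCAO. The vehicle groups again did not overlap, and the candesartan groups did. Its differences were 0.65 ± 0.16 (limma adjusted p = 0.235) with vehicle, 0.22 (adjusted p = 0.599) with candesartan and 0.29 for candesartan against vehicle after sham. Prpf38a itself stayed between 465.4 and 973.3 and was not tested.

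Prpf3, a U4/U6 protein, read 1029.3 and 1153.3 in vehicle sham, 1254.2 and 1393.2 in vehicle MCAO, 940.3 and 948.3 in candesartan sham, and 1539.7 and 1257.7 in candesartan MCAO. All 4 MCAO pools exceeded all 4 sham pools, with 0.42 (limma adjusted p = 0.349) for candesartan and 0.32 ± 0.12 (adjusted p = 0.388) over both. Apart from Snrpa, whose direction the filter fixed, Srsf6 and Prpf3 were the 2 of 50 members with this pattern (4%, against 2.84% of all tested), and 0 had the reverse (2.39% of all tested). Over both pretreatments 5 of those 50 had an unadjusted p under 0.05, all higher after MCAO (10%, against 9.54%).

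Prpf18, which acts in the second catalytic step, read 2749.4 and 2564 in vehicle sham, 3139.9 and 3347.4 in vehicle MCAO, 2590.5 and 2960.9 in candesartan sham, and 2351.5 and 2255.5 in candesartan MCAO. As for Tra2a, the vehicle MCAO pools were the highest and the candesartan MCAO pools the lowest. The differences were 0.26 and -0.23, and -0.49 ± 0.18 between them (limma adjusted p = 0.54). Prpf40b, a U1-linked protein, likewise gave 0.29 and -0.19, and -0.48 between them (adjusted p = 0.551).

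Prpf19, the ubiquitin ligase of the Prp19 complex, ran the other way. It gave -0.11 with vehicle and 0.28 with candesartan, and 0.36 for candesartan against vehicle after MCAO (limma adjusted p = 0.335), with its highest signal, 9586.2, in the second candesartan MCAO pool. Prpf8, the U5 scaffold at the catalytic centre and the Prpf probe set of highest mean signal, gave -0.02 and 0.12, and 0.25 for candesartan against vehicle after MCAO (adjusted p = 0.403). Prpf4b, a kinase of the tri-snRNP, gave 0.20 and 0.07, and Prpf6, which bridges the tri-snRNP, gave 0.12 and -0.06.

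Candesartan against vehicle was compared within each operation. After MCAO, 22 of 51 members were above 0 with a median of -0.05, against -0.03 for all tested. Without the second candesartan MCAO pool 27 were above 0 with a median of 0.0027, and without the first 18 with a median of -0.11. Pools did not overlap for 4 members that were higher (7.84%, against 18% of all tested) and 11 that were lower (21.6%, against 23.8%), and 6 had an unadjusted p under 0.05, 1 higher and 5 lower (11.8%, against 13.1%). After sham, 26 of 51 were above 0 with a median of 0.02, against 0.01, and 0 had an unadjusted p under 0.05 (3.92% of all tested). Non-overlapping pools after sham were counted for 10 members higher (19.6%, against 18.9%) and 5 lower (9.80%, against 14.9%), among the latter Snrpa at -0.18 and Prpf3 at -0.15.

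**Figure D4:**
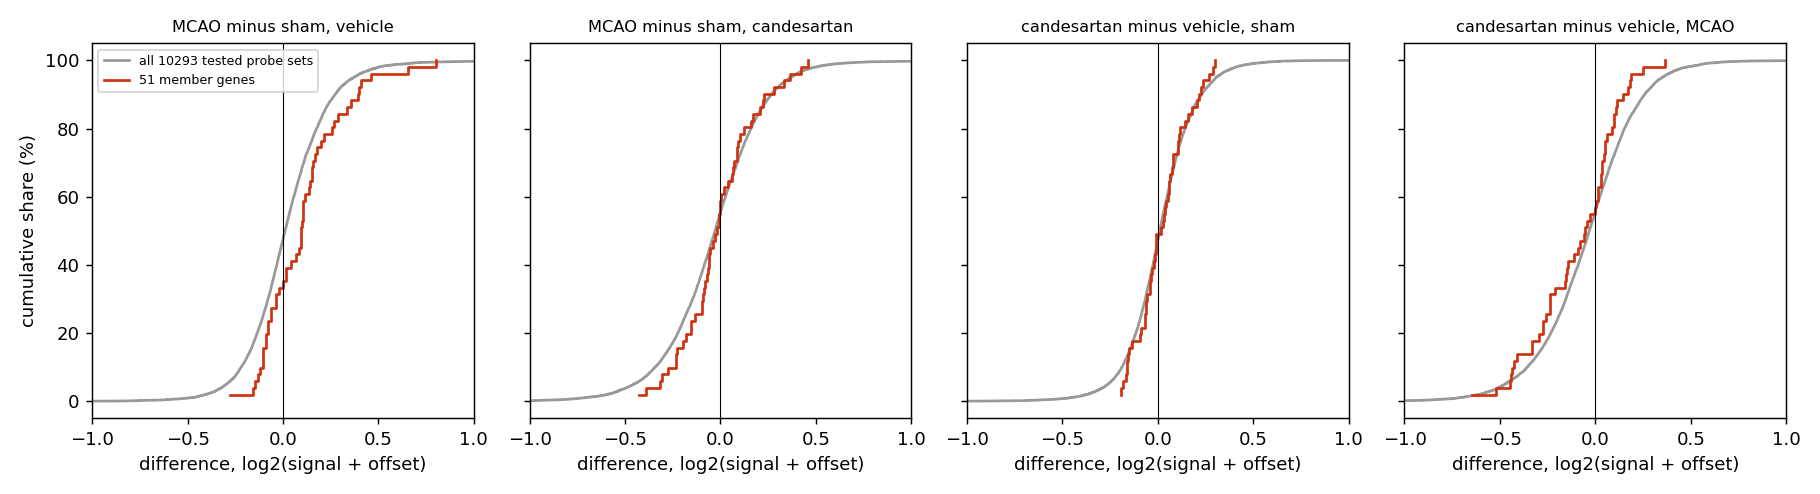
Cumulative share in percent of the 51 member genes (red) and of all 10293 tested probe sets (grey) against the difference on the log2(signal + 372.4) scale, in 4 comparisons. The red curve lies to the right of the grey one for MCAO against sham with vehicle (medians 0.10 and 0.01) and crosses it in the other 3 panels.

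The difference between the MCAO effects of the 2 pretreatments shares its arrays with every comparison above. It was above 0 for 18 of 51 members (35.3%, against 43.1% of all tested), with medians of -0.14 and -0.05, and 4 had an unadjusted p under 0.05, all lower with candesartan (7.84%, against 8.85%). Prpf19 had the highest value, 0.38, followed by Snrpa (0.28), Snrpd2 and Snrpa1 (0.27 each), and Tra2a had the lowest. With arrays centred on their medians the 2 medians became -0.01 and 0.08. Without the second candesartan MCAO pool 25 were above 0, the members' median was -0.02 and 0 were called, as in each of the other comparisons without that pool. Without the first, which leaves the pool that stood apart alone in its group, 17 members were above 0 with a median of -0.16.

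Other genes of the splicing pathway were counted from lists drawn up by function, with earlier results of these data known. A called gene in a list therefore describes that gene only. For comparison, 0.262% of all tested probe sets were called after MCAO with vehicle and 0.243% with candesartan. Above 0 were 52.5% and 44.7% of all tested. Of kinases and phosphatases that act on splicing factors, 17 of 18 measured genes were tested and 1 rose after MCAO with vehicle, Clk1, which phosphorylates SR proteins. Clk1 read 2460.5 and 2008.1 in vehicle sham, 7120.1 and 6650.2 in vehicle MCAO, 2745 and 2846.4 in candesartan sham, and 6966.6 and 4943.8 in candesartan MCAO. All 4 MCAO pools were above all 4 sham pools, and it rose by 1.48 ± 0.16 (limma adjusted p = 0.00282) with vehicle and by 0.98 ± 0.16 (adjusted p = 0.0473) with candesartan, the latter with an adjusted p of 0.117 when no filter was used. Leaving out the second vehicle sham or the first vehicle MCAO array took the vehicle value to 1.36 (adjusted p = 0.0763) and 1.44 (adjusted p = 0.0664). The candesartan call was lost, with adjusted p of 0.0852 to 0.322, without any 1 of the 6 arrays outside the candesartan MCAO group. The list's median was 0.04 with vehicle and -0.00 with candesartan.

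Among other regulators of exon choice 0 of 40 were called in either MCAO comparison (medians 0.06 and -0.00). Khsrp, a KH-type RNA-binding protein of splicing and mRNA decay, came nearest, at -0.94 with vehicle (limma adjusted p = 0.0759) and 0.59 with candesartan (adjusted p = 0.248); it was called with vehicle under quantile scaling (-0.99, adjusted p = 0.0461). Rbm5 gave 0.41 with vehicle and Rbfox3 0.47 with candesartan. Of other core spliceosome genes 0 of 61 were called (medians 0.00 and -0.01), with Dhx16 at 0.28 and Lsm3 at -0.30 with vehicle, and Ppil3 at 0.46 and Aqr at -0.34 with candesartan. Of the SMN complex and Sm assembly genes 0 of 12 were called (0.06 and 0.01). Prmt5 and Strap there gave 0.23 and -0.17 with vehicle, and Coil and Wdr77 gave 0.44 and 0.13 with candesartan.

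Of exon junction complex and RS-rich cofactor genes 0 of 20 were called. Here 17 of 20 were above 0 after MCAO with vehicle (median 0.05) and 7 of 20 with candesartan (median -0.10). Acin1, an RS-rich cofactor, gave 0.37 in both pretreatments (limma adjusted p = 0.566 and 0.339), and Pnn, which sits at nuclear speckles, gave 0.28 and -0.39 (0.753 and 0.356).

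Cell type markers were set beside these differences, and their part in them was not tested. With vehicle after MCAO, 3 of 13 neuronal markers were above 0 (median -0.10), 0 of 8 astrocyte markers (-0.18), 6 of 8 oligodendrocyte markers (0.08), 2 of 7 microglial or macrophage markers (-0.04), 4 of 5 endothelial and mural markers (0.05) and 1 of 2 blood markers (-0.03). With candesartan the medians were 0.10, -0.15, -0.12, -0.22, -0.05 and -0.56 in the same order. No marker of these lists was called in either comparison. Summed astrocyte signal was 181094 to 194929 in the 4 sham pools, 160182 and 169342 in vehicle MCAO, and 155318 and 216142 in candesartan MCAO. Muscle markers, a check for stray tissue, included Myh2 below the filter in every pool (425.4 to 537.9), but Myh1 at 7438.3 to 14653, and 3 of the 5 passed the filter.

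Where a gene had several tested probe sets they often disagreed. Of 12 such genes, 6 had probe sets that differed by more than 0.5 in some comparison, and 2 had opposite signs for MCAO with vehicle. The spread between the 2 pools of a group was of the same order as most differences: the median absolute difference between pools was 0.12 in vehicle sham, 0.09 in vehicle MCAO, 0.16 in candesartan sham and 0.27 in candesartan MCAO for members, and 0.13, 0.13, 0.15 and 0.22 for all tested.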

How the data were processed

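Expression was measured on 8 Affymetrix rat arrays, 2 for each of 4 groups, each array holding RNA pooled from 2 rats. The deposited values are linear signal intensities that the authors computed with GCOS, per the submitters' processing notes, and every array has the same trimmed mean, so they were scaled alike; no source used here gives the settings. Equal scaling hides any change common to all transcripts. From these intensities, 57 control probe sets were dropped and 15866 kept. Values were taken as log2(signal + 372.4), the offset being the 20th percentile, and a probe set was tested if it exceeded 918.8 (40th percentile) on at least 2 arrays, which left 10293. Tests used limma 3.58.1 in R 4.3.3 with 4 group means, a variance trend and Benjamini-Hochberg adjustment within each of 6 comparisons; the script was tested on simulated data. Errors are standard errors, and the p-values measure the spread between 2 pools per group.

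Symbols came from the platform annotation, which gave 1 symbol for 12783 probe sets, several for 312 and none for 2771; all 74 member probe sets matched RefSeq on GRCr8 (used for names and start regions). The members and the gene lists were chosen with earlier results of these data known. Genes named were those called, the 4 highest and 4 lowest with non-overlapping pools in each comparison (by size alone for the difference of effects), the highest-signal gene of each family, a short set always named (Puf60, the Tra2 and U2AF genes, Srsf1, Hnrnpa1, Hnrnpk, Snrpn, Prpf4b), genes whose probe sets differed by over 0.5, called or lowest-p companions, Clk1 and Hspa1a; the other genes given were added after their values were seen. Alternatives covered scaling, offset, filter, variance model, weights, the groups fitted, the pool number as a block, all member probe sets and leaving out each array.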

Additional observations from a re-analysis of the deposited data

How the results depend on the processing

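The count of called members stayed at 0 in all 6 comparisons under quantile scaling, median centring, cyclic loess, both other offsets, no or a stricter filter, no variance trend, robust variance and the replicate block. For MCAO against sham with vehicle it was 2 with array weights (Prpf38b and Prpf39; 104 or 1.01% of all tested), 1 when only the groups compared were fitted (Prpf39; 93 or 0.904%) and 1 when all 67 tested member probe sets were counted (Hnrnpa2b1). Leaving out 1 array at a time gave 0 to 5 called for MCAO against sham with candesartan, 0 to 8 for candesartan against vehicle after MCAO, 0 to 2 for the difference between the MCAO effects and 0 to 2 for both pretreatments; each upper value came without the first candesartan MCAO pool. The fit without that pool leaves the pool that stood apart alone in its group. In the first 2 of those comparisons it also called many more of all tested probe sets than the main fit. The rise in calls there was therefore not confined to the members. The members' medians under median centring were 0.0292 for MCAO with vehicle, 0.0453 for MCAO with candesartan, 0.0278 for candesartan after MCAO and -0.00694 for the difference between effects. Leaving out 1 array moved the median from 0.0613 to 0.12 for MCAO with vehicle, from -0.107 to 0.00272 for candesartan after MCAO, from -0.0881 to 0.0376 for MCAO with candesartan, from -0.0207 to 0.0761 for candesartan after sham and from -0.164 to -0.0223 for the difference between effects (-0.0670 without the second vehicle MCAO pool). Signs turned for Snrpd2 in the difference between effects (-0.00831 to 0.556 over the arrays left out, the former without the first candesartan MCAO pool), for the second Hnrnpa2b1 probe set after MCAO with candesartan (-0.0416 to 0.123; -0.0416 without the first candesartan sham pool, -0.0186 without the first candesartan MCAO pool) and for Wdr77 (-0.0461 to 0.301; -0.0461 without the second candesartan MCAO pool); the cause was not tested. Among the companion lists, quantile scaling left 1 called kinase (Clk1) in each MCAO comparison and gave 1 called regulator of exon choice (Khsrp) with vehicle. The call of the second Hnrnpa2b1 probe set was lost with the replicate block (adjusted p = 0.0693). For 67 results of single named genes, each in 1 comparison, 1267 values across these settings kept direction and side of the threshold, 16 gained a call, 25 lost one and 4 changed sign. Pool numbers did not pair the arrays: the differences between pools correlated between groups at -0.09 to 0.14, and with the replicate block 0 members were called in each comparison, against 22, 22, 4, 0, 0 and 45 of all tested. With 2 pools a group, precision is limited by their number.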

Other observations

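Hnrnpdl, which encodes a relative of Hnrnpd, differed more between the pools of a group than between the groups. Its representative probe set read 5130.9 and 11061.3 in vehicle sham, 9281.6 and 10844.4 in vehicle MCAO, 5692.4 and 11086.7 in candesartan sham, and 6727.6 and 10259.6 in candesartan MCAO. The second pool was higher than the first in all 4 groups, by a mean of 0.69 on the log2 scale, and 7 of the 10293 tested probe sets had a larger mean difference in either direction. Its other probe set read 4786 and 5625.4 in vehicle sham, 4105.2 and 5566.9 in vehicle MCAO, 4577.6 and 4633 in candesartan sham, and 4260.1 and 3228.2 in candesartan MCAO, so the second pool was higher in 3 of 4 groups. Among the members, 5 of 51 (9.80%) were higher in the second pool of every group and 4 (7.84%) were lower, against 6.22% and 5.28% of all tested.

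Of the 2 Snrpn probe sets that the annotation shares with Snurf, 1 read 28998.2 to 36137.3 in 7 pools and 63081.2 in the second candesartan MCAO pool. The other read 27182 to 33363.1 in the same 7 pools and 34153.5 in that pool. Both probe sets lie outside the gene rule because they name 2 genes.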
